A study of Mus musculus with 4 samples.

Results

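The RNA levels of 8 receptor tyrosine kinases and 2 of their ligands were followed in mouse Schwann cells labelled NF2-/-, with and without the HSP90 inhibitor NXD30001. The genes were the TAM receptors Axl, Mertk and Tyro3 and their ligand Gas6, the receptor Met and its ligand Hgf, Igf1r and Insr of the insulin receptor family, and Fgfr1 and Fgfr2. They were found by symbol, and all 10 had a row in both deposited tables of 35604 gene rows each. Of the 10, 9 carried a usable estimate in each of them. Fgfr2 was marked as a failed estimate in both.

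There were 4 RNA-seq libraries, 1 per group, so no replicate spread can be given and no test between conditions was possible. The cells, ESC-FC1801, are embryonic Schwann cells of FVB/N background that carried Nf2Flox/Flox and were made NF2-/- in vitro with Ad-Cre, an adenovirus that delivers Cre recombinase. All 4 groups share this deletion. In culture the cells received DMSO or 1 µM NXD30001 for 24 h, and their routine medium was serum-free with neuregulin-β1 and forskolin. In mice bearing an ESC-FC1801 tumour, vehicle or 100 mg/kg NXD30001 was given 3 times a week for 4 weeks. The host strain, the age and number of the mice, any pooling and whether the line is 1 clone are unstated in the labels. A tumour piece also holds host cells, in which Nf2 was not deleted by this procedure. The bulk Nf2 row read 15.9 FPKM with DMSO and 12.5 with NXD30001 in culture, and 57.2 with vehicle and 42.8 with NXD30001 in tumours. A row for the whole gene does not check the deletion, and which exons were floxed is unstated in the labels.

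Gas6 binds all TAM receptors and protein S only some of them, and both ligands bridge receptors to phosphatidylserine on dying cells. Axl and Mertk are best known for clearing such cells and for damping inflammation. MET, the receptor of hepatocyte growth factor, drives motility and growth, and HGF is made mainly by mesenchymal cells. IGF1R and the insulin receptor signal through IRS proteins to PI3K and AKT, and IGF1 is a survival signal for Schwann cells. FGF receptors bind FGFs together with heparan sulphate and signal through FRS2 to the MAP kinase pathway. AXL, MET, IGF1R and the insulin receptor are among the kinases that depend on HSP90 for folding, which concerns protein. The libraries measured RNA alone.

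Levels are given in FPKM, fragments per kilobase of transcript, corrected for the number of fragments mapped in each library. A difference is the treated library's log2(FPKM + 1) less the value with no drug, so that 1 is 2-fold on this scale. Genes that reached 1 FPKM in a library of the pair entered the comparison, 12676 for culture and 15550 for tumours. The implied error is the log2 error that follows from the fold and statistic in the authors' deposited table, and the 95% interval of a ratio rests on it. It applies to the ratio of the levels themselves, compares 2 libraries and covers no biological spread. Levels in culture and in tumours come from tables made separately and are not set against each other.

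Fragment depth differed little within a pair. The treated library had 1.05 times the depth of the untreated one in culture, estimated from 40 genes with an error of 1 fragment per library, and 1.19 times in tumours, from 56 such genes. The median gene at 30 to 100 FPKM had an implied error of 0.69 in culture and 0.30 in tumours, so that error was smaller in tumours. All compared genes had a median difference of -0.25 in culture and -0.03 in tumours.

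The labelled cell type was checked against 14 Schwann cell markers. In culture 12 of the 14 were compared, of which 2 were higher and 7 lower by 2-fold or more under NXD30001. Of all compared genes 12.6% were higher and 24.8% lower by as much. Sox10, the Schwann lineage transcription factor, read 8.42 FPKM with DMSO and 4.40 with NXD30001, and Mbp, which encodes myelin basic protein, read 12.1 and 88.1. In tumours 11 of 12 compared markers were at least 2-fold higher in the treated library, where 7.32% of all compared genes were. The markers summed to 239.5 FPKM with vehicle and 704 with NXD30001. Sox10 read 47.0 and 139.8 there.

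Of 14 macrophage and 12 endothelial markers, 1 each reached 1 FPKM in culture, Cd68 at 2.32 and 1.93 FPKM and Tek at 0.0324 and 2.18. All 14 macrophage markers were lower in the treated tumour, 2 of them at least 2-fold, where 6.93% of all compared genes were. The summed level of these markers was 2208 FPKM with vehicle and 1749 with NXD30001. In culture they summed to 2.71 and 2.14 FPKM, and endothelial markers to 0.143 and 2.22. Lyz2, C1qa and C1qb were listed at 0 in both cultures. The 10 endothelial markers compared in tumours were all lower with NXD30001, with sums of 101 FPKM for vehicle and 41.6 for the drug. The 10 fibroblast markers summed to 4139 and 3367, with 4 higher and 6 lower. Fibroblast markers summed to 1295 FPKM with DMSO and 1130 with NXD30001 in culture, where 6 of the 10 stayed under 1 FPKM. The collagen genes Col1a1, Col1a2 and Col3a1 held most of these sums in both settings. They read 1576, 892 and 1141 FPKM in the vehicle tumour and 346, 293 and 653 in the DMSO culture. Pericyte and smooth muscle markers summed to 213 FPKM with vehicle and 446 with NXD30001. Of 7 compared, 4 were higher and 3 lower. By 2-fold or more 3 were higher, where 7.32% of all compared genes were. Mcam and Acta2 read 94.9 and 82.0 FPKM with vehicle and 201 and 186 with NXD30001. Mcam also read 30.8 and 49.2 FPKM in the 2 cultures. The epithelial keratin genes Krt8 and Krt18 read 374 and 17.4 FPKM with vehicle and 61.1 and 1.39 with NXD30001. Both are called lower in the authors' deposited table. Epcam, another gene of the epithelial list, was listed at 0 in both tumours. T and NK cell markers summed to 1.79 and 1.15 FPKM. In bulk tissue, fewer cells of a type and less RNA per cell cannot be told apart, and the part these markers have in the tumour values below was not tested.

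The 250 bases before the start of 4 genes were searched and are printed, for Met in part, because these are the genes past 2-fold in 1 of the tables that have an entry in the RefSeq promoter table, build GRCm38.p6. Of the 10 genes 8 matched an entry by symbol, all but Insr and Fgfr1. Starts are those of RefSeq. Each is written 5′ to 3′ on the gene's own strand. Capitals mark matches to 5 motifs searched on both strands: the heat shock element as GAANNTTC or TTCNNGAA, the TEAD motif GGAATG, the AP-1 motif TGANTCA, the GC box GGGCGG (printed as its reverse complement where it lies on the other strand) and the ETS motif CCGGAA. Axl lies at chr7:25788734-25788983 on the minus strand, Mertk at chr2:128698665-128698914 on the plus strand, Gas6 at chr8:13494536-13494785 on the minus strand and Met at chr6:17463707-17463956 on the plus strand. For Met, 2 of 7 GENCODE M21 transcripts begin inside this window, up to 157 bases before the RefSeq start, and only the 93 bases upstream of these are printed (to 17463799). For the other 3 genes no GENCODE transcript begins inside the window.
Axl: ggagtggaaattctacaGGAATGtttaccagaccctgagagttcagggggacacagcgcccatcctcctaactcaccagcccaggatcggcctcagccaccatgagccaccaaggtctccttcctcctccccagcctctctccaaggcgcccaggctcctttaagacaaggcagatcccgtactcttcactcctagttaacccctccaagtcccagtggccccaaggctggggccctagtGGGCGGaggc
Mertk: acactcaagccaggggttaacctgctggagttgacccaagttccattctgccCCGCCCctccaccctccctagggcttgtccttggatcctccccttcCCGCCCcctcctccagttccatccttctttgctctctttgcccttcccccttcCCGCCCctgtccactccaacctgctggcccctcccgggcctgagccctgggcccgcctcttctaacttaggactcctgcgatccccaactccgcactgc
Gas6: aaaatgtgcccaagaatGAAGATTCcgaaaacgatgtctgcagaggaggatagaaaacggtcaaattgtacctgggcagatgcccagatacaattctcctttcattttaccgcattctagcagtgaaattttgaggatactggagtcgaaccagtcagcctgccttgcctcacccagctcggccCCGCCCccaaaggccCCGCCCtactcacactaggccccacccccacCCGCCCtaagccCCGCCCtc
Met: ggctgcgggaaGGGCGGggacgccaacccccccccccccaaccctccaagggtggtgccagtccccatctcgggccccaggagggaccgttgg

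Each of the 4 windows held at least 1 GC box, a motif in 32.7% of all 32851 windows of this length. Axl had a TEAD match starting 233 bases before the gene start, as 12.6% of windows do, and 1 GC box. In Mertk 3 GC boxes were the only matches. Gas6 had a heat shock element match starting 233 bases before its start, which 12.8% of windows hold, and 4 GC boxes. Met had an AP-1 match 54 bases before its RefSeq start, found in 6.75% of windows, and 3 GC boxes. The AP-1 match and 2 of these GC boxes lie past the part printed, where the upstream GENCODE starts place transcript. No ETS match lay in the 4 windows, against 12.0% of all. G and C made up 60% of the Axl window, 63.6% of Mertk, 54.8% of Gas6 and 74% of Met, where the median window had 52.4%. A match is a description of letters and not a binding site.

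In culture, 3 of the 7 compared genes were at least 2-fold lower with NXD30001 (Axl, Mertk and Fgfr1), where 24.8% of all compared genes were. Met alone was at least 2-fold higher, where 12.6% of all genes were. The 7 differences ran from -2.75 to 1.02 with a median of 0.33, and the middle 50% of all genes ran from -0.996 to 0.47. The authors' deposited table calls 2 of the 7, Mertk and Fgfr1, both lower, where it calls 7.14% of all compared genes lower, 2.75% higher and 9.89% in either direction. Its unadjusted p lay under 0.05 for 4 of the 7 (Axl, Mertk, Met and Fgfr1), against 24.9% of all compared genes. In tumours, 9 genes were compared and Gas6 alone was at least 2-fold lower, where 6.93% of all genes were. None was 2-fold higher, where 7.32% of all genes were. The tumour differences ran from -1.03 to 0.73 with a median of 0.16. The authors' deposited table, made with Cuffdiff, calls none of the 9, where it calls 3.14% of all compared genes higher, 2.45% lower and 5.59% in either direction. That table's unadjusted p lay under 0.05 for 4 of the 9 (Axl, Mertk, Gas6 and Hgf), against 18% of all compared genes. With so few genes, these shares do not set the group apart from the rest of the transcriptome.

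**Figure D1:**
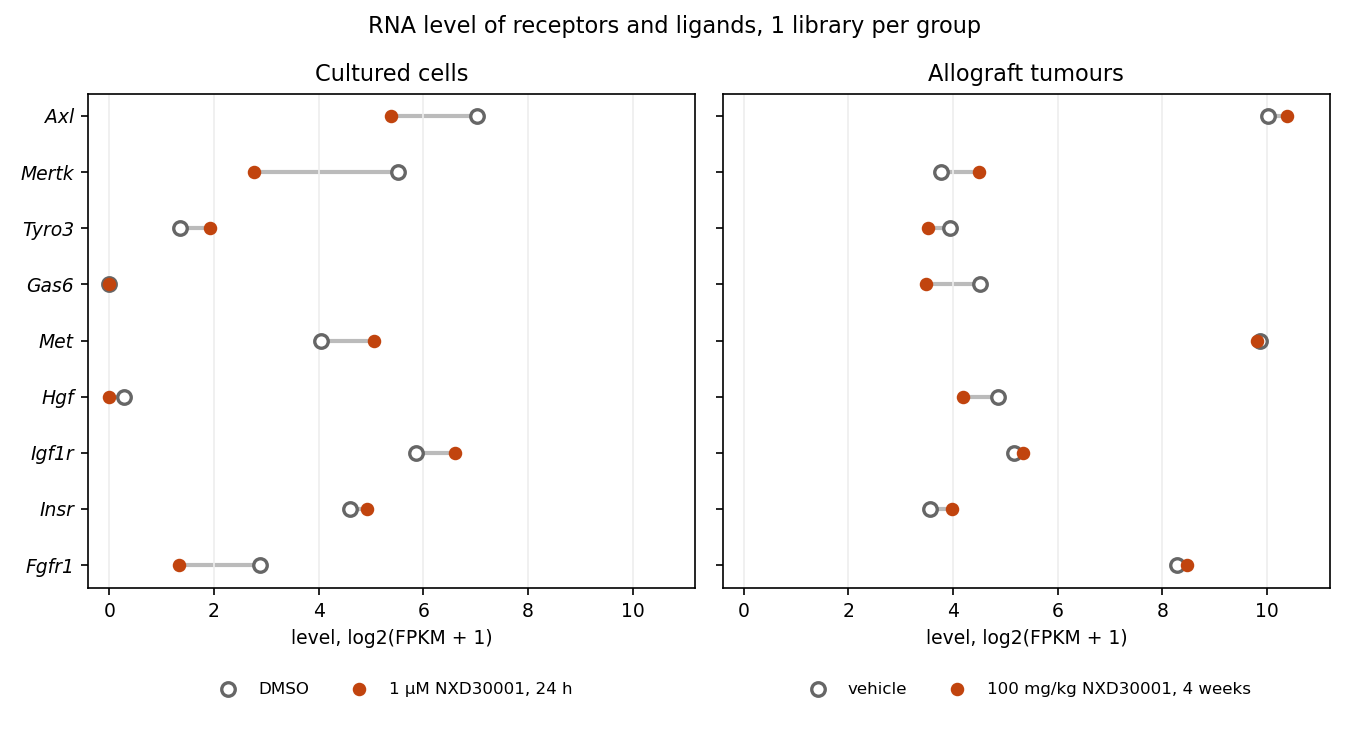
RNA level of 7 receptors and 2 ligands on the horizontal axis, as log2(FPKM + 1), in cultured cells (left) and tumours (right). Open circles are the untreated and filled circles the treated library, 1 library each, and Gas6 in both cultures and Hgf in the treated culture are listed at 0. Axl, Mertk and Fgfr1 lie lower in the treated culture and slightly higher in the treated tumour.

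Axl was the most abundant receptor tyrosine kinase of the DMSO culture and of both tumours, among those with a usable estimate. These were 56 of 58 listed kinases in culture and 55 in tumours. Its row (ENSMUSG00000002602, chromosome 7 from 26542292 to 26573724, mm9, a locus shared with no other row) read 129 FPKM with DMSO and 40.8 with NXD30001. This is 3.17-fold lower in the treated culture, a ratio of 0.316 with a 95% interval of 0.146 to 0.680, and a log2 difference of -1.64 (implied error 0.57). The authors' deposited table gives it a q of 0.0731 and no call. Its level sat at percentile 90.5 with DMSO and 75.3 with NXD30001. Percentiles here and below are taken among the genes at 1 FPKM or more in the same library.

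In tumours Axl read 1043 FPKM with vehicle and 1342 with NXD30001, a ratio of 1.29 with an interval of 1.09 to 1.52. The difference of 0.36 is on the opposite side of 0 from that in culture. Its implied error of 0.12 was small, where genes of like level had a median of 0.30. The authors' deposited table gives a q of 0.0815 and no call. Axl sat at percentile 99.2 with vehicle and 99.4 with NXD30001.

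Mertk, the TAM receptor that macrophages rely on to engulf dying cells, differed most in culture. Its row (ENSMUSG00000014361, chromosome 2 from 128524692 to 128628630, mm9) read 44.6 FPKM with DMSO and 5.79 with NXD30001. The treated library was 7.71-fold lower, with a ratio of 0.130, an interval of 0.0488 to 0.345 and a difference of -2.75 (implied error 0.72). The authors' deposited table calls it, with a q of 0.00212. The level sat at percentile 75.9 with DMSO and 33.9 with NXD30001.

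The Mertk locus is shared with 2 other rows, and no label says whether strand was kept in these libraries. The antisense gene AL808104.2 read 145 FPKM with DMSO and 2.77 with NXD30001, and the small nucleolar RNA SNORA25 read 12418 and 0. Both were thus lower in the same library as Mertk, and both were listed at 0 in the 2 tumours. The part of these rows in the Mertk value was not tested.

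In tumours Mertk was higher with NXD30001, at 12.6 FPKM with vehicle and 21.6 with the drug. The ratio was 1.72 with an interval of 1.17 to 2.53, and the difference was 0.73 with an implied error of 0.28. No call was made in the authors' deposited table, which gives a q of 0.157. In that same tumour all 14 macrophage markers were lower, 2 of them at least 2-fold. Of 12 compared Schwann cell markers 11 were at least 2-fold higher, where 7.32% of all compared genes were. The part of either cell type in the Mertk value was not tested.

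Tyro3, the TAM receptor known mainly from the nervous system, was the least abundant of the 3 in both cultures and in the treated tumour. The row (ENSMUSG00000027298, chromosome 2 from 119623469 to 119643840, mm9) read 1.56 FPKM with DMSO and 2.78 with NXD30001. Its ratio of 1.79 had an interval of 0.742 to 4.30, which includes equal levels. In tumours it read 14.3 FPKM with vehicle and 10.4 with NXD30001, a ratio of 0.731 with an interval of 0.357 to 1.499. The differences were 0.56 in culture and -0.42 in tumours, and both intervals include equal levels.

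**Figure D2:**
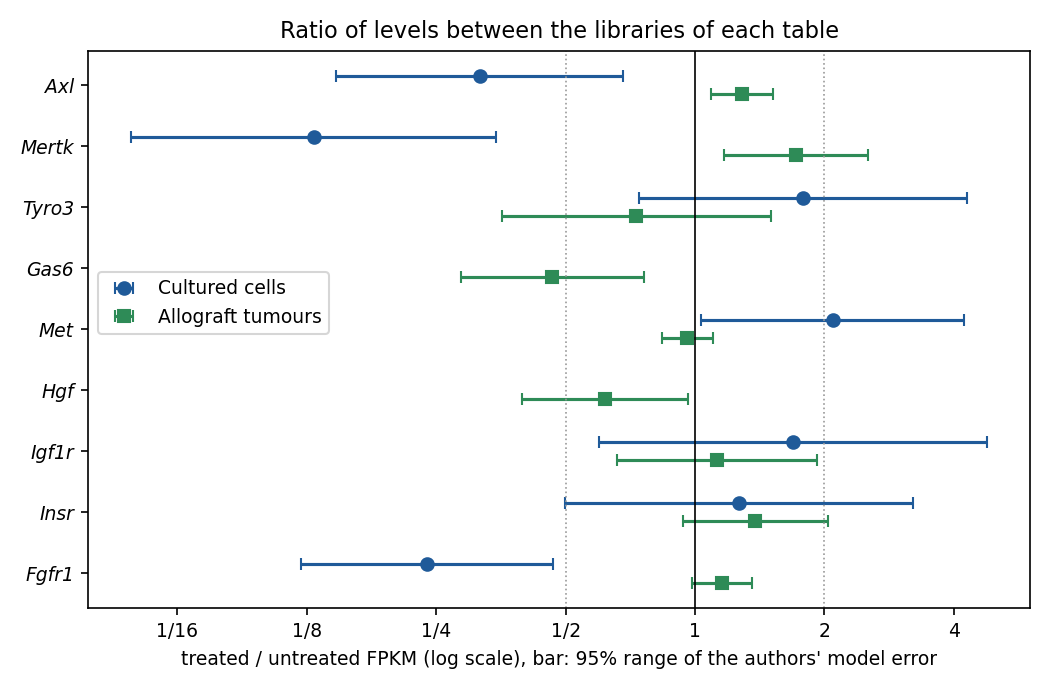
Ratio of treated to untreated level on a log2 axis for each receptor and ligand with a level above 0 in both libraries, in culture and in tumours. Bars are 95% intervals from the error implied by the authors' table. Gas6 and Hgf have no culture ratio because each is listed at 0 with NXD30001, and the culture intervals of Axl, Mertk and Fgfr1 lie below a ratio of 1.

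Gas6, the vitamin K-dependent ligand that binds all TAM receptors, was listed at 0 in both cultures. In tumours its row (ENSMUSG00000031451, chromosome 8 from 13465376 to 13494528, mm9) read 21.7 FPKM with vehicle and 10.1 with NXD30001. It was 2.15-fold lower in the treated tumour, a ratio of 0.466 with an interval of 0.285 to 0.761. On the log2(FPKM + 1) scale the difference was -1.03, just past the 2-fold line, with an implied error of 0.36. The authors' deposited table gives a q of 0.0733 and no call. In that library the macrophage and endothelial sums were lower and the pericyte and Schwann sums higher. The pericyte and smooth muscle markers went both ways gene by gene (4 higher, 3 lower), as did the fibroblast markers (4 higher, 6 lower).

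The balance of the TAM receptors within a library moved apart in culture and little in tumours. Axl made up 73.7% of the summed FPKM of the 3 receptors with DMSO and 82.6% with NXD30001. Mertk made up 25.4% and 11.7%, and Tyro3 0.889% and 5.64%. The summed level was 176 FPKM with DMSO and 49.4 with NXD30001. In tumours Axl held 97.5% with vehicle and 97.7% with NXD30001, Mertk 1.18% and 1.57%, and Tyro3 1.33% and 0.759%. The Axl to Mertk ratio was 2.90 and 7.05 in the 2 cultures and 82.8 and 62.1 in the 2 tumours. Per FPKM of Axl there was 0.0208 of Gas6 with vehicle and 0.00755 with NXD30001.

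**Figure D3:**
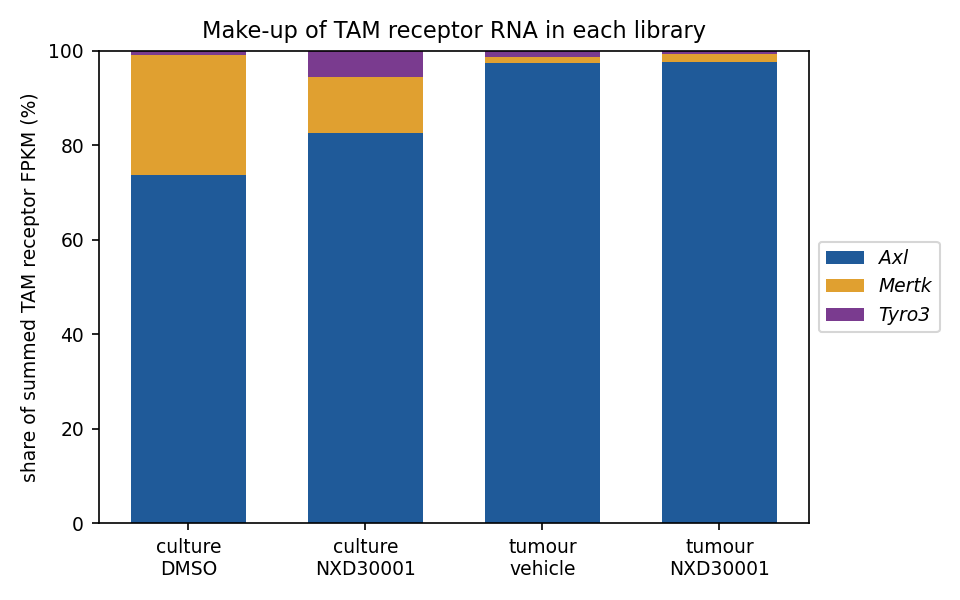
Share of Axl, Mertk and Tyro3 in their summed FPKM, in percent, in each of the 4 libraries. Axl holds 73.7% and 82.6% in the 2 cultures and over 97% in both tumours.

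Among the other ligands and the genes that carboxylate or shed TAM proteins, 7 of 9 were compared in culture. By 2-fold or more 3 were lower and none higher, where 24.8% and 12.6% of all compared genes were. Their median was -0.81, against -0.25 for all compared genes. With so few genes this does not set the list apart. Pros1, which encodes protein S, the second TAM ligand, read 70.4 FPKM with DMSO and 22.5 with NXD30001, a difference of -1.60. Vkorc1l1, a vitamin K epoxide reductase, read 37.9 and 16.5 FPKM. Adam17 and Adam10, proteases that shed AXL and MERTK, read 54.8 and 24.2 FPKM and 171 and 96.9 FPKM. None of these is called in the authors' deposited table.

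Pros1 went the other way in tumours, at 5.28 FPKM with vehicle and 48.0 with NXD30001. Its log2 difference was 2.97 (implied error 0.36), the largest of the list, and the authors' deposited table calls it. Gas6 and Pros1 thus lay on opposite sides of 0 in the tumours. The Pros1 locus is shared with 3 other rows. Lgals3, whose product galectin-3 is a reported MERTK ligand, read 559 FPKM with vehicle and 296 with NXD30001, called lower in the authors' deposited table. The tumour median of the 7 compared genes of this list was -0.16.

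Of 14 partners in the uptake of dying cells, 9 were compared in culture, 3 of them at least 2-fold lower and none 2-fold higher, with a median of -0.68. The share of all genes 2-fold lower was 24.8%, so this count is near the background. Megf10, an engulfment receptor, read 19.1 FPKM with DMSO and 2.28 with NXD30001. Itgb3, the β3 integrin subunit, read 7.90 and 0.628 FPKM. The authors' deposited table calls both lower. Dock1, an activator of Rac in engulfment, read 23.4 and 6.59 FPKM and is not called, and its locus is shared with 3 other rows.

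In tumours the median of 11 compared uptake genes was 0.12. Megf10 read 12.5 FPKM with vehicle and 25.7 with NXD30001, and the integrin subunit gene Itgav read 99.5 and 161. Both are called higher in the authors' deposited table. Itgb3 read 6.65 and 2.80 FPKM and is not called. Megf10 therefore showed the same pair of signs as Mertk and Axl.

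Met was higher in the treated culture and close to level in tumours. The row (ENSMUSG00000009376, chromosome 6 from 17413800 to 17523980, mm9, shared with no other row) read 15.4 FPKM with DMSO and 32.3 with NXD30001. The ratio was 2.09 with an interval of 1.03 to 4.23, and the difference of 1.02 (implied error 0.52) sat at the 2-fold line. The authors' deposited table gives a q of 0.408 and no call. Its percentile was 53.8 with DMSO and 71.1 with NXD30001.

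In tumours Met read 928 FPKM with vehicle and 891 with NXD30001, percentile 99.1 in both. The ratio of 0.960 had an interval of 0.838 to 1.10, and the difference was -0.06. A change of 2-fold in either direction lies outside that interval, which covers no biological spread. Its implied error was 0.10, where genes of like level had a median of 0.30.

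Hgf stayed under the minimum level in culture, reading 0.219 FPKM in the DMSO library and 0 in the treated one. In tumours its row (ENSMUSG00000028864, chromosome 5 from 16059368 to 16125257, mm9) read 27.8 FPKM with vehicle and 17.2 with NXD30001. The ratio was 0.617 with an interval of 0.395 to 0.963, and the difference was -0.67 with an implied error of 0.33. No call was made in the authors' deposited table (q of 0.432). The ratio of Met to Hgf was 33.3 with vehicle and 51.9 with NXD30001. Both ligands, Gas6 and Hgf, were lower in the treated tumour.

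Of 14 genes of the MET family, HGF activation and MET partners, 6 were compared in culture, with a median of -0.27. Cd44, a hyaluronan receptor that acts as a MET co-receptor, read 59.1 FPKM with DMSO and 6.23 with NXD30001. That difference of -3.06 is called in the authors' deposited table. Plxnb1, a semaphorin receptor that associates with MET, read 0.887 and 13.9 FPKM, called higher. Plat, tissue plasminogen activator, read 31.3 and 12.7 FPKM and is not called. Cd44 and Plxnb1 each share their locus with 1 other row.

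In tumours 9 of these 14 genes were compared, with 3 higher and 6 lower and a median of -0.57. Cd44 was again lower, at 192 FPKM with vehicle and 99.5 with NXD30001, and is the 1 gene of the list that the authors' deposited table calls. Plau, the urokinase that can activate HGF, read 21.0 and 10.3 FPKM. Plat read 36.1 and 70.6 FPKM. Neither Plau nor Plat is called.

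Igf1r and Insr were higher in both treated libraries, with 95% intervals that all include equal levels. Igf1r (ENSMUSG00000005533, chromosome 7 from 75097143 to 75378553, mm9, shared with no other row) read 57.3 FPKM with DMSO and 97.0 with NXD30001. Its ratio of 1.69 had an interval of 0.599 to 4.78. In tumours Igf1r read 35.1 FPKM with vehicle and 39.4 with NXD30001, a ratio of 1.12 with an interval of 0.657 to 1.92.

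Insr (ENSMUSG00000005534, chromosome 8 from 3150922 to 3279617, mm9) read 23.1 FPKM with DMSO and 29.3 with NXD30001. The ratio was 1.27 with an interval of 0.499 to 3.21. In tumours it read 10.7 FPKM with vehicle and 14.8 with NXD30001, a ratio of 1.38 with an interval of 0.936 to 2.04. Its locus is shared with 3 other rows, of which AC168068.3 was above Insr itself, at 120 and 133 FPKM in culture and 19.7 and 37.8 in tumours.

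Both receptors thus had differences above 0 in both tables, of 0.75 and 0.16 for Igf1r and 0.33 and 0.43 for Insr, and none reached 2-fold or was called in the authors' deposited table. Igf1r made up 71.2% of the summed level of the pair with DMSO and 76.8% with NXD30001. In tumours it made up 76.6% with vehicle and 72.7% with NXD30001. Igf1r was therefore the larger part of the pair in all 4 libraries.

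The 14 other genes of the IGF and insulin list, ligands, receptors and adaptors, gave 7 compared in culture with a median of 0.01. Irs1, the main adaptor of both receptors, read 10.7 FPKM with DMSO and 38.3 with NXD30001 and is not called in the authors' deposited table. Igf1, the ligand, read 1.01 FPKM with DMSO and was listed at 0 with NXD30001. Grb14, an inhibitory adaptor of the insulin receptor, read 12.2 and 24.2 FPKM. In tumours 9 were compared, with a median of 0.14. Of these 3 were at least 2-fold lower, where 6.93% of all compared genes were. Igf1 read 15.2 FPKM with vehicle and 5.83 with NXD30001 and is not called. Grb10, a related inhibitory adaptor, read 10.2 and 3.12 FPKM and is called lower in the authors' deposited table. Grb14 read 9.01 and 2.49 FPKM, not called.

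The list of IGF binding proteins and their proteases gave 9 of 15 genes compared in culture, with a median of -0.96. By 2-fold or more 2 were higher and 4 lower, where 12.6% and 24.8% of all compared genes were. It also holds 3 genes for mRNA-binding proteins, Igf2bp1, Igf2bp2 and Igf2bp3. Igf2bp3, at 1.28 and 0.175 FPKM, is the gene at the median, and Igf2bp1, at 0.0334 and 1.17 FPKM, is 1 of the 2 higher genes. The other is the protease gene Pappa, at 0.0125 and 1.05 FPKM. Both higher genes reached the minimum of 1 FPKM only with NXD30001. Igfbp5 read 331 FPKM with DMSO and 71.1 with NXD30001, and Igfbp7 read 17.1 and 0.336. The authors' deposited table calls both lower. Stc1, a stanniocalcin and the relative of the PAPP-A inhibitor Stc2, read 58.7 FPKM with DMSO and was listed at 0 with NXD30001, and is not called.

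In tumours 11 of the 15 were compared with a median of -0.11. Igfbp2 read 4.94 FPKM with vehicle and 20.9 with NXD30001. Pappa, the protease that frees IGFs from IGFBP4, read 5.93 and 16.9 FPKM. Both are called higher in the authors' deposited table. Igfbp6, which prefers IGF2, read 283 and 151 FPKM and is not called.

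**Figure D4:**
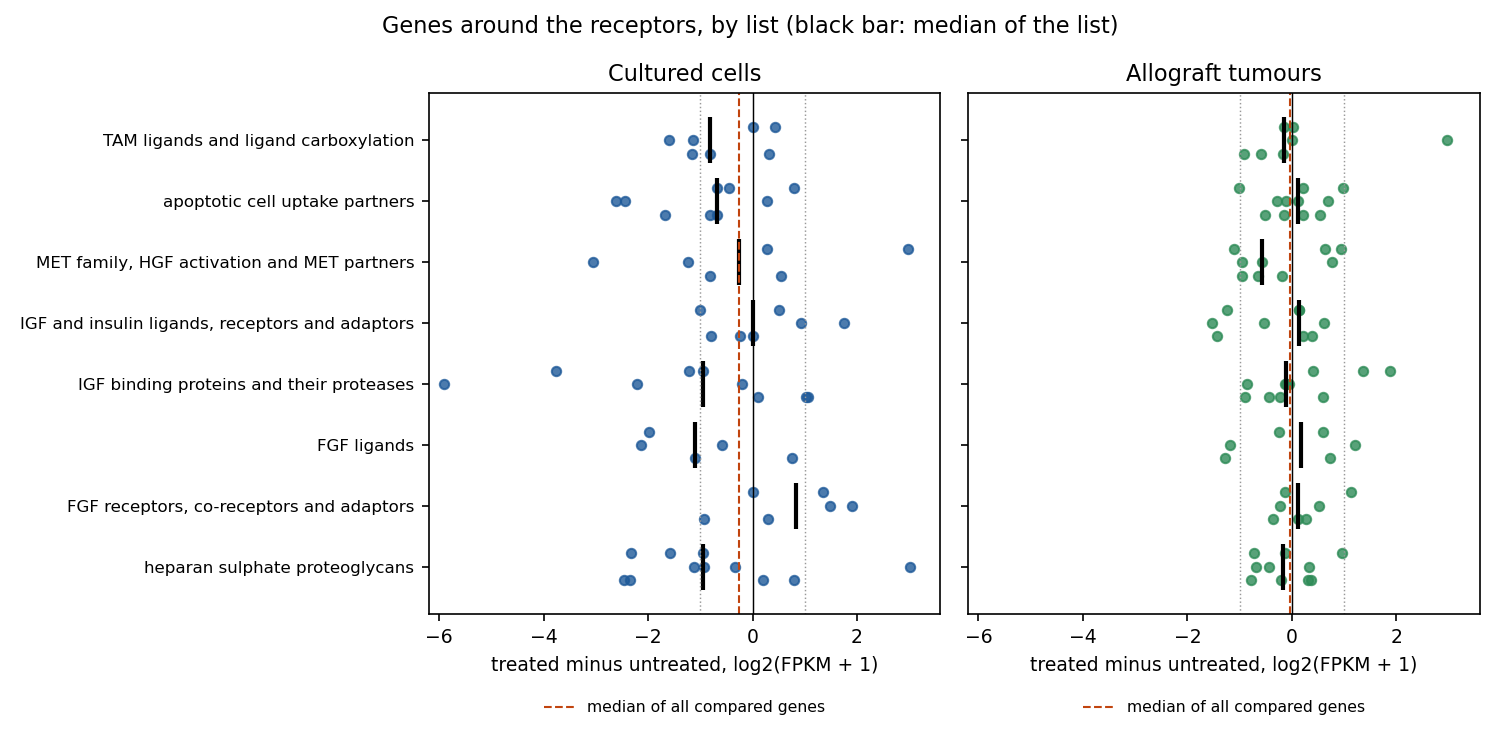
Differences in log2(FPKM + 1), treated minus untreated, of the compared genes of 8 pathway lists around the receptors, in culture (left) and tumours (right). Black bars are list medians and the dashed line is the median of all compared genes, -0.25 and -0.03. In culture the FGF receptor list has a median of 0.83, or 0.31 without overlapping loci, and in tumours the medians run from -0.57 to 0.17.

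Fgfr1 was lower in the treated culture, and its 2 tumour levels were close. Its row (ENSMUSG00000031565, chromosome 8 from 26624126 to 26686186, mm9) read 6.32 FPKM with DMSO and 1.51 with NXD30001. The treated library was 4.19-fold lower, a ratio of 0.239 with an interval of 0.121 to 0.469. The difference was -1.55 with an implied error of 0.50, where genes of like level had a median of 0.90. The authors' deposited table calls it, with a q of 0.00166. With a pseudocount of 5 FPKM the difference is -0.80.

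In tumours Fgfr1 read 308 FPKM with vehicle and 355 with NXD30001, percentiles 96.6 and 97.1. The ratio was 1.15 with an interval of 0.982 to 1.35, and the difference was 0.20. No call was made in the authors' deposited table (q of 0.647). The antisense gene AC160526.3 shares the Fgfr1 locus. It read 21.9 FPKM with DMSO and 0 with NXD30001, and in tumours it read 0.557 and 10.5, the same pair of signs as Fgfr1. Its part in the Fgfr1 value was not tested.

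Fgfr2 (ENSMUSG00000030849) was marked as failed in both tables. Its locus in the files, chromosome 7 from 137305965 to 140315050 in mm9, was given to 42 rows, and the other 41 rows failed as well. The 0 listed for it is a failed estimate and no level of Fgfr2 is reported.

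FGF ligands were mostly silent in culture, where 5 of 22 were compared, with a median of -1.09. Of these 3 were at least 2-fold lower, where 24.8% of all compared genes were. Fgf2 read 3.31 FPKM with DMSO and 0.0974 with NXD30001 and is called lower in the authors' deposited table. Fgf7, a ligand of the FGFR2 IIIb form, read 9.20 and 1.31 FPKM and is not called. Their loci are shared with 9 and 4 other rows. In tumours 6 ligands were compared, with 3 higher and 3 lower, a median of 0.17 and no call. Fgf5 was lower in both tables, at 8.05 and 3.24 FPKM in culture and 5.68 and 1.94 in tumours.

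The other FGF receptors, co-receptors and adaptors gave 6 compared genes of 13 in culture. Of these 3 were at least 2-fold higher and none lower, where 12.6% and 24.8% of all compared genes were. Fgfr3 was listed at 0 with DMSO and read 2.74 FPKM with NXD30001, called higher in the authors' deposited table. Frs2, the docking protein of FGF receptors, read 37.8 and 98.0 FPKM, and Flrt3, a membrane partner of FGFR1, read 32.0 and 91.6, neither called. The list median was 0.83, and 0.31 without rows of overlapping loci, among them Flrt3, whose locus is shared with 10 other rows. In tumours the median of 7 compared genes was 0.12, and Flrt1, at 1.26 and 3.96 FPKM, is the 1 gene called.

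Heparan sulphate proteoglycans, which hold FGFs at the receptor, had 11 of 12 genes compared in culture, with a median of -0.95. By 2-fold or more 1 was higher and 5 lower, where 12.6% and 24.8% of all compared genes were. The glypican gene Gpc4 read 9.62 FPKM with DMSO and 84.5 with NXD30001, and Agrn, which encodes agrin, read 16.6 and 2.47. The authors' deposited table calls both. Sdc3, a syndecan of Schwann cells, read 25.5 and 3.82 FPKM and is not called. In tumours none of 10 passed 2-fold, with a median of -0.17. Hspg2, which encodes perlecan of the basement membrane, read 311 FPKM with vehicle and 607 with NXD30001 and is called higher in the authors' deposited table.

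Ranked among the receptor tyrosine kinases with a usable estimate, Axl or Igf1r held rank 1 in each library. Others of the receptors described here ranked far lower, and Fgfr2 has no rank. With DMSO, Axl held rank 1, Igf1r 2, Mertk 3, Insr 5, Met 8, Fgfr1 11 and Tyro3 19, of 20 kinases at 1 FPKM or more. With NXD30001 in culture, Igf1r held rank 1, Axl 3, Met 5, Insr 6, Mertk 12, Tyro3 19 and Fgfr1 26, of 27. In both tumours the order began with Axl, Met and Fgfr1. Igf1r held rank 12 with vehicle and 13 with NXD30001, Mertk 19 and 17, Insr 21 and 19, and Tyro3 17 and 20, of 37 and 32 kinases. Without replicates, neighbours in these orders cannot be said to differ.

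The ratio of Igf1r to Axl in culture was 0.443 with DMSO and 2.38 with NXD30001. In tumours it was 0.0336 and 0.0294. Met relative to Axl was 0.119 and 0.791 in the 2 cultures and 0.890 and 0.664 in the 2 tumours. Fgfr1 relative to Axl was 0.0489 and 0.0369 in culture and 0.295 and 0.265 in tumours.

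Across the receptor tyrosine kinases, 24 were compared in both tables, 7 of them among the receptors described here. Of the 24, 6 were lower in culture and higher in tumours, 9 higher in culture and lower in tumours, 7 higher in both and 2 lower in both. Axl, Mertk and Fgfr1 belong to the first kind, Tyro3 and Met to the second, and Igf1r and Insr to the third. Of the 5 kinases at least 2-fold lower in culture, 4 had a tumour difference above 0 (Mertk, Axl, Fgfr1 and Erbb3), the exception being Pdgfra. Among all 24, the first 6 and the 7 higher in both were above 0 in tumours. With so few kinases, 4 of 5 is not set apart from these. The culture list of 28 compared kinases had a median of 0.68, or 0.36 with a pseudocount of 5 FPKM, 0.33 with a minimum of 5 FPKM and 0.02 without a minimum. By 2-fold or more 11 were higher and 5 lower, where 12.6% and 24.8% of all genes were. Of the higher ones, Fgfr3, Ror1, Tek, Epha4, Ephb4 and Styk1 reached 1 FPKM only in the treated library. Of the lower ones, Pdgfra reached it only with DMSO. Both counts thus depend on the minimum level and set no excess of higher kinases. The tumour list of 37 had a median of -0.10.

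The nearest kinases were taken by Euclidean distance between the pairs of differences in culture and tumours, over the 24 kinases. Axl and Fgfr1 were nearest to each other, at 0.18, and Erbb3, the neuregulin receptor of Schwann cells and 1 of the 14 Schwann markers, came next to both, at 0.78 and 0.88. Mertk stood further out, with Axl at 1.17 and Fgfr1 at 1.31. Igf1r lay next to Epha2 at 0.14 and Erbb2 at 0.15, and Insr next to Erbb2 at 0.42 and Igf1r at 0.50. Met lay next to Ror1 at 0.22 and Epha2 at 0.23, and Tyro3 next to Ryk at 0.37 and Ephb4 at 0.49. Each distance rests on 2 differences, from 4 libraries.

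**Figure D5:**
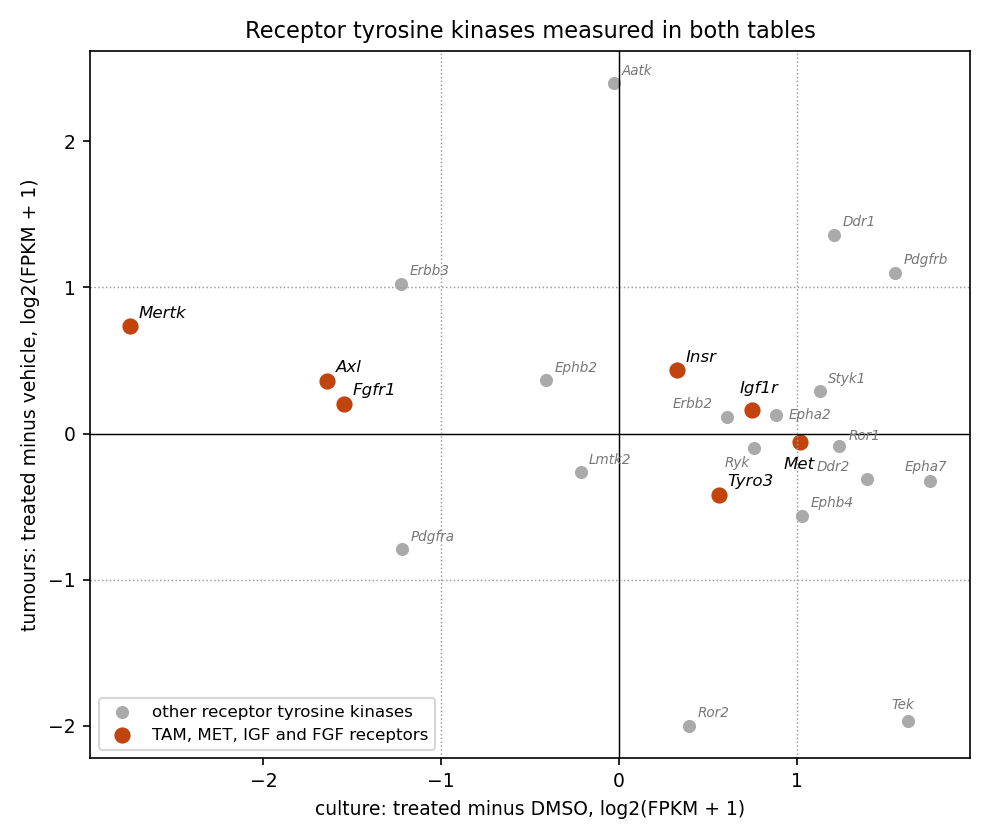
Difference in log2(FPKM + 1), treated minus untreated, in culture (horizontal) and in tumours (vertical) for the 24 receptor tyrosine kinases compared in both tables. The 7 receptors described here are in red and the others in grey, dotted lines mark 2-fold. Mertk, Axl and Fgfr1 lie at the upper left with Erbb3, and Igf1r, Insr, Met and Tyro3 lie right of 0.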

How the data were processed

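Per the labels' protocols, total RNA came from Trizol lysates cleaned with the RiboPure kit, and Illumina libraries were made. Tools named in the submitters' processing notes are TopHat 1.2.0, Cufflinks 1.0.2, Cuffdiff and CASAVA, with build mm9. The authors deposited 2 gene tables, 1 for culture and 1 for tumours, with FPKM levels. Per the file headers these also hold the natural log of the fold (ratio of levels), a test statistic, a p-value and a q-value. The deposited q reaches 2.05, above any probability, and was used as a score of the authors' own comparison, with called genes under 0.05. That comparison is of 2 libraries, not of conditions. Fold and statistic had opposite signs in 100% of rows with both.

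Groups followed titles, sources and treatments, since the sample type label calls all 4 samples cultured cells. Rows marked FAIL (705 in culture, 347 in tumours) or LOWDATA (61 and 449) were left out, as a 0 there is a failed estimate. Genes needed 1 FPKM in either library, and the difference used a pseudocount of 1 FPKM and no centring. The implied error is the natural log fold divided by the statistic, put on the log2 scale. Starts in the files count from 0, so 1 was added. The calculation was tested on simulated data. Python 3.11.15, numpy 2.4.6, pandas 2.3.3 and matplotlib 3.10.9 were used.

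The genes, the 16 gene lists and the rules were chosen with earlier results of these data known. Lists hold none of the 10 genes, except the list of receptor tyrosine kinases. Besides the 10 genes, the text draws on up to 4 genes per pathway list and table with the largest differences, the 2 nearest kinases of each receptor, Nf2, and up to 3 markers per list with the highest level in the vehicle tumour. Epcam, Cd68, Tek, Epha4, Styk1, Pdgfra, Igf2bp1, Igf2bp2, Igf2bp3 and the culture values of Pappa were added after their values were seen. 1 marker gene is not reported here. Alternatives were pseudocounts of 0.1 and 5 FPKM, no minimum and a minimum of 5 FPKM, centring on the median of all genes, and leaving out rows whose locus overlaps another.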

Additional observations from a re-analysis of the deposited data

Results flagged for a closer look

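The difference between treated and untreated libraries had opposite signs in culture and tumours for 5 of the 7 receptors compared in both tables. Opposite signs were common among the 24 kinases compared in both. There 6 were lower in culture and higher in tumours, and 9 the reverse. The like share of all genes was not computed, so the count does not set these receptors apart. Tumour difference minus culture difference, in log2(FPKM + 1), was 2.00 for Axl, 3.48 for Mertk and 1.75 for Fgfr1, all lower in the treated culture and higher in the treated tumour. It was -0.98 for Tyro3 and -1.08 for Met, both higher in culture and lower in tumours. With 1 library per group the difference between culture and tumours was not tested. Dose, duration and host cells differ between the settings as well and cannot be told apart.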

How the results depend on the processing

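No paired analysis was possible because each group has 1 library. None of the 9 measured genes changed sign under any alternative that gave it a value, and 57 of 58 single-gene values moved by less than the implied error. Fgfr1 in culture went to -0.80 with a pseudocount of 5 FPKM, which left 2 of 3 genes 2-fold lower. Of 144 values that summarise genes or lists, 132 moved by less than the implied error or, for counts, by at most 1.5 times, and 12 moved further. With a pseudocount of 5 FPKM no gene stayed 2-fold higher in culture (0 in place of 1) or 2-fold lower in tumours (0 in place of 1). Leaving out rows with overlapping loci removed Mertk, Fgfr1 and Insr. It left 1 of 3 genes 2-fold lower in culture and took the tumour median of the genes from 0.16 to -0.24. A minimum of 5 FPKM removed Tyro3 and took their culture median from 0.33 to -0.61. Without a minimum, silent genes enter, and the culture medians became 0.00083 for TAM ligands, 0 for IGF binding proteins, 0 for FGF ligands, 0.017 for FGF receptors and partners and 0.02 for receptor tyrosine kinases. The tumour median of the MET list was -0.57, and it was -0.21 with a pseudocount of 5 FPKM, -0.22 without a minimum and -0.18 with a minimum of 5 FPKM. Centring on all genes adds 0.25 to every culture difference and 0.03 to every tumour difference. The median of IGF binding proteins in culture was -0.28 with a pseudocount of 5 FPKM and -1.71 with a minimum of 5 FPKM. A single library per group leaves biological spread unknown.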
